A study of Mus musculus with 4 samples.

Results

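A group of 10 genes that cells switch on within minutes of a stimulus or of stress was followed in the thymus: 8 immediate-early genes (Fos, Fosb, Jun, Junb, Dusp1, Ier2, Zfp36 and Btg2) and 2 inducible heat shock genes (Hspa1a and Hspa1b). They were picked by gene symbol from the 32285 genes of the count matrices, and all 10 had at least 1 unique molecular identifier (UMI, a tag that marks 1 captured transcript) in each of the 4 libraries. Mouse thymocytes were profiled by 3′ droplet single-cell RNA sequencing in 2 control libraries (genotype Tox4;F/F, titled WT) and 2 conditional knockout (cKO) libraries (genotype Tox4;F/F;Lck+), numbered 1 and 2 within each genotype. All 4 carry loxP sites around Tox4 (exons 4 to 6), on a C57BL/6 background and at 6 to 8 weeks of age by the study's methods, and only the cKO carries Cre, from the proximal Lck promoter, which acts from the DN3 stage on and so leaves the earliest thymocytes undeleted. The methods speak of littermate pairs, but the labels do not say that a number marks a litter, so the p-values below measure the spread between these libraries. The levels were compared across stages, between the replicate numbers as a check on handling, and between genotypes.

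Immediate-early genes are transcribed without new protein synthesis when antigen receptor, growth factor or stress signals reach factors already bound at their promoters, and their messenger RNAs decay fast. Fos, Fosb, Jun and Junb encode subunits of the AP-1 transcription factor, whereas Dusp1, Zfp36 and Btg2 encode brakes: a MAP kinase phosphatase, a protein that hastens the decay of AU-rich messenger RNAs, and an anti-proliferative cofactor of deadenylation. In thymocytes, T cell receptor signals at positive selection induce many immediate-early genes, and dissociating a tissue into single cells is known to induce many of them too. Hspa1a and Hspa1b encode the stress-inducible HSP70 chaperones and are transcribed by HSF1 when proteins unfold.

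The promoters of 5 members are shown. The cyclic AMP response element (CRE) is 1 of the sites through which some immediate-early genes are known to be induced, and the heat shock element is that of heat shock genes. The 3 immediate-early members shown are those with a CRE core. Each run is the 200 bases before the RefSeq transcription start (build GRCm38.p6, written 5′ to 3′ on the gene's strand). Capitals mark the CRE core TGACGT, on either strand and with overlapping matches joined, in the first 3 runs and the pair of heat shock units GAANNTTC in the last 2. The windows lie at chr12:85473690-85473889 (plus strand) for Fos, chr17:26508473-26508672 (minus) for Dusp1, chr1:134079156-134079355 (minus) for Btg2, chr17:34972157-34972356 (minus) for Hspa1a and chr17:34959239-34959438 (minus) for Hspa1b.
Fos: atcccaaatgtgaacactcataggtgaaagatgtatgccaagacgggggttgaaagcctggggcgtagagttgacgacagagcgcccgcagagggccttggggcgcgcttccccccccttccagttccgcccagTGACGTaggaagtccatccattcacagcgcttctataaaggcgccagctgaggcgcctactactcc
Dusp1: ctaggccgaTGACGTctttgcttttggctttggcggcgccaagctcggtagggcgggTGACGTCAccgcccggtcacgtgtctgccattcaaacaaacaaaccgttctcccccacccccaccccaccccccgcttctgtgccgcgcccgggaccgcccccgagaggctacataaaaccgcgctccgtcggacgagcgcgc
Btg2: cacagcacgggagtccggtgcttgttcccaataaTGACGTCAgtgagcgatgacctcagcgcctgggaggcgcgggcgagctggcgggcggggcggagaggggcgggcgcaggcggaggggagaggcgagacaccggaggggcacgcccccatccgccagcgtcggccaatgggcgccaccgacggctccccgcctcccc
Hspa1a: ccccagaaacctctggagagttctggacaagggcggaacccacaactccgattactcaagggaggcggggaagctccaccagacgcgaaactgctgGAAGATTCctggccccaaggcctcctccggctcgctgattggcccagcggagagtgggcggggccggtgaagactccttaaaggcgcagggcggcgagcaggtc
Hspa1b: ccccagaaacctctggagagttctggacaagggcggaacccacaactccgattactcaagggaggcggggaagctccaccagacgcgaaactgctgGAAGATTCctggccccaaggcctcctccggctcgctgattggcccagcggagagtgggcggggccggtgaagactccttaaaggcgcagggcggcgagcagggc

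Windows of 300 bases (250 before to 50 after the start) were held for 9 of the 10 members in a table of 32851 promoters, and motifs were counted in those. The CRE core was present in Fos, Dusp1 and Btg2 and in 7.51% of all promoters, and the full palindrome TGACGTCA was present in Dusp1 and Btg2 and in 1.79%. The 2-unit heat shock match lay in Hspa1a, Hspa1b and Jun and in 7.86% of promoters, whereas the 3-unit form TTCNNGAANNTTC was in no member and in 0.603%. A CArG box, the site of serum response factor, lay in the Zfp36 window (1.63% of promoters), and TATAAA lay in those of Fos and Junb (13.6%). The Hspa1a and Hspa1b windows differed at 4 of 300 bases, 1 of them within the printed 200. Their transcripts (GENCODE M21) shared 1419 of 2878 windows of 90 bases counted from Hspa1a, but 0 of 411 such windows in the last 500 bases, where 3′ reads fall. These matches describe letters only.

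The 4 libraries held 57354 droplets and 42716798 to 62007453 UMIs each, and 33414 cells were kept. The share of droplets with over 10% mitochondrial UMIs, which were left out, was 48.3% in control 1, 20.6% in control 2, 46.1% in cKO 1 and 23.1% in cKO 2, so that both libraries numbered 1 lost about as many droplets as they kept. Kept cells were clustered without the members and grouped by markers into DN (double-negative), DPbla (dividing double-positive), DPre (resting, rearranging double-positive), DPsel (double-positive under selection), CD4SP and CD8SP cells, and a class of mononuclear phagocytes (MPS). Each name stands for cells like that stage. The defining markers were high in their own class in every library, for example Il2ra in DN, Rag1 in DPre, Itm2a in DPsel and Lyz2 in MPS, although Rag1 was also found at 194 to 535 CPM (UMIs of a gene per 1000000 UMIs of the sum) in the MPS class. Unnamed clusters held 14.1% to 22.3% of a library's cells. Classes numbered 66 to 287 DN, 382 to 1198 DPbla, 2680 to 5805 DPre, 875 to 1662 DPsel, 283 to 389 CD4SP, 156 to 230 CD8SP and 108 to 407 MPS cells per library. Barcodes shared by pairs of libraries numbered 36 to 70. The 3′ tags of Tox4 lie outside the floxed exons, so its level checks no label; in all DP cells it was 72.8, 75.1, 56.4 and 61.0 CPM in control 1, control 2, cKO 1 and cKO 2. Values below are given in that library order, as CPM of the UMIs summed over a class.

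The AP-1 genes had their highest levels in DN, selected or mature cells and low levels in resting DP cells, and within each stage the libraries numbered 2 were above those numbered 1. Fos stood at 3.14, 77.7, 2.87 and 31.9 CPM in DN cells and at 0.779, 5.87, 0.651 and 6.55 CPM in DPre cells. Both libraries numbered 2 were above both numbered 1 in each of these stages. In DN cells these levels rested on 2, 83, 4 and 77 Fos UMIs, found in 2 of 66, 38 of 105, 4 of 146 and 45 of 287 cells with a median depth of 9661, 10015, 8978 and 7697 UMIs. In DPre cells, the class with the lowest Fos, 0.261%, 1.54%, 0.210% and 1.55% of cells held a Fos UMI at a median depth of 3165, 2649, 3036 and 2272 UMIs.

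Fosb, a less abundant partner of Jun proteins, was at 4.71, 20.6, 0.719 and 18.6 CPM in DN cells and at or below 4.31 CPM in every library of the DPre, DPsel, CD4SP and CD8SP stages. Jun was at 78.5, 231, 126 and 169 CPM in DN cells, above every value of the later stages, and at 5.67, 14.7, 8.14 and 12.1 CPM in DPre cells. The DN range did not overlap that of CD4SP cells, the next stage by mean, and the ranges of neighbouring stages after that overlapped. Junb was at 17.3, 543, 59.6 and 200 CPM in DN cells, 19.8, 49.8, 27.2 and 38.5 CPM in DPbla cells, 127, 434, 127 and 298 CPM in DPsel cells and 111, 586, 92.8 and 365 CPM in CD4SP cells. For Fos, Fosb and Junb no neighbouring stages in the order of means were free of overlap, since the libraries of 1 stage spanned several-fold.

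**Figure D1:**
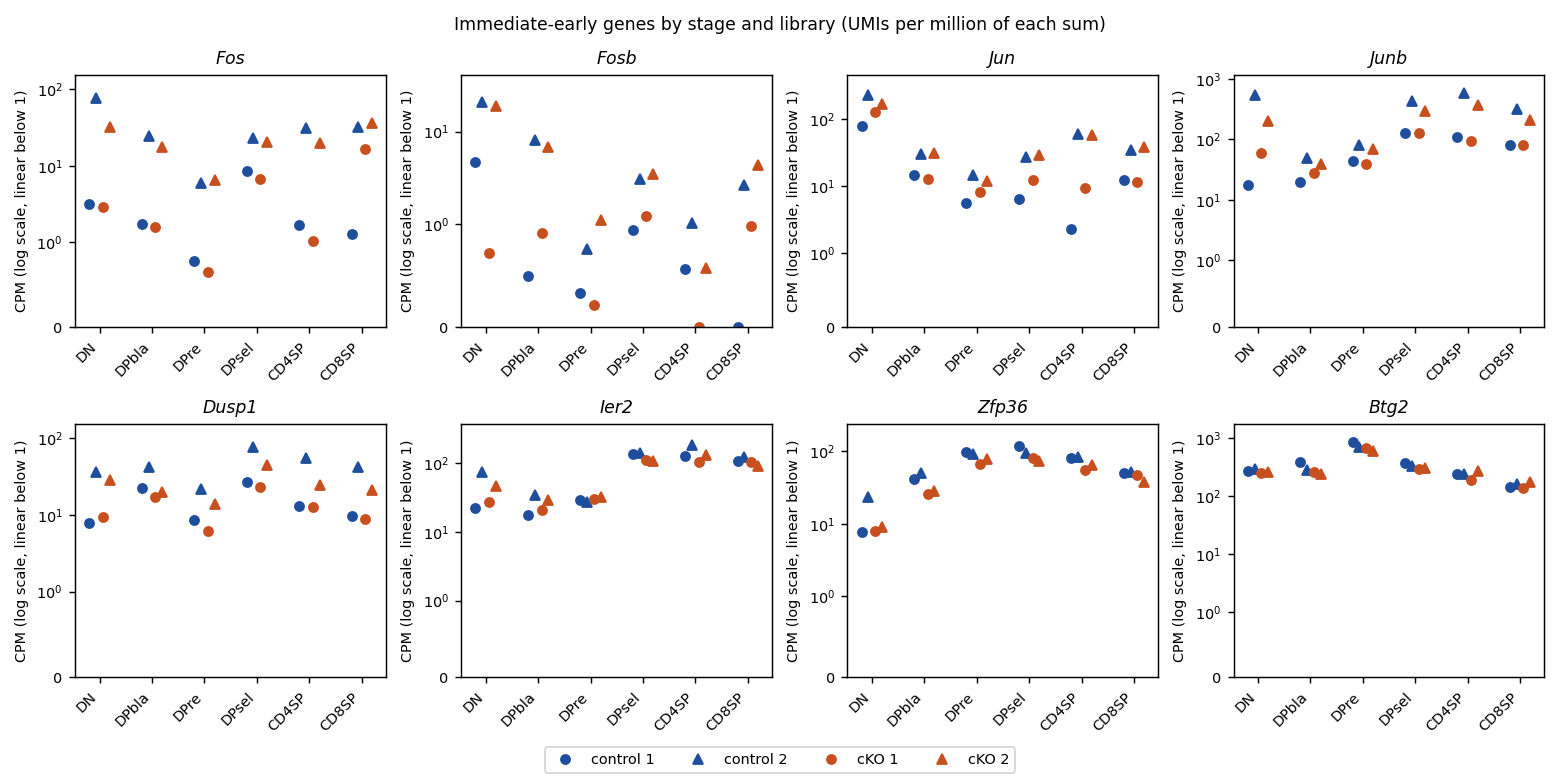
Levels of the 8 immediate-early genes in the 6 thymocyte stages, in CPM of each stage's sum on a log axis that is linear below 1. Each point is 1 library (blue control, orange cKO, circles number 1, triangles number 2). The triangles of Fos, Fosb, Jun and Junb lie above the circles in all 6 stages, whereas the 4 points of Btg2 lie close together.

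Ier2, Zfp36 and Btg2 each had stages whose libraries did not overlap those of the next stage by mean, and Dusp1 had none. Ier2, a small nuclear protein of the early growth response, was at 28.6, 27.1, 30.1 and 32.6 CPM in DPre cells and at 136, 138, 112 and 107 CPM in DPsel cells. All DPsel libraries were therefore above all DPre libraries, and CD8SP cells (91.2 to 123 CPM) lay above DN cells (22.0 to 74.9 CPM) without overlap. Zfp36 was lowest in DN cells at 7.85, 23.4, 7.90 and 9.11 CPM and highest by mean in DPsel cells at 118, 96.3, 80.6 and 74.8 CPM, a range that overlapped DPre (67.8 to 97.4 CPM). Btg2 peaked in DPre cells at 857, 692, 674 and 606 CPM, above the 372, 332, 293 and 306 CPM of DPsel cells in every library, and was lowest in CD8SP cells (136 to 175 CPM). Dusp1 was highest by mean in DPsel cells (26.3, 75.2, 23.0 and 44.7 CPM) and lowest in DPre cells (8.46, 21.7, 6.08 and 13.7 CPM).

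Neighbouring stages were compared within libraries, so that each library served as its own reference. Between DPre and DPsel cells, the step at which T cell receptor signals select thymocytes, 8 members passed the low-count filter, of which Fosb passed through DPsel alone and so had to differ. The other 7 were called (edgeR, adjusted p under 0.05), 6 higher and 1 lower in DPsel, where 60.5% of all 11653 tested genes were called. Fos was higher by 2.16 ± 0.18 on the log2 scale (± SE), Ier2 by 2.15 ± 0.08, Junb by 2.13 ± 0.08, Dusp1 by 1.86 ± 0.08, Jun by 0.98 ± 0.13 and Zfp36 by 0.22 ± 0.06, whereas Btg2 was at -1.01 ± 0.04. With a 5% limit on mitochondrial UMIs Zfp36 was no longer called, at -0.047.

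The other lists were counted in the same comparison, in which 30.3% of all tested genes were higher and 30.2% lower in DPsel cells. Of 34 other immediate-early genes tested, 22 were higher and 9 lower, with a median of 0.83, and the higher ones included Nr4a1 (3.98), Cd69 (3.97) and Egr1 (3.42), which are known readouts of T cell receptor signals. Of 15 regulators tested, the kinases and factors upstream, 9 were higher and 0 lower, among them Srf (0.87), serum response factor, and Mapk3 (0.61), the kinase ERK1. Of 20 other heat shock genes, 15 were higher and 2 lower, with Hsp90ab1 at 0.87 and Hspa8 at 0.76. Of 6 glucocorticoid response genes 2 were higher and 4 lower, with Tsc22d3 at -1.11 and Per1 at 1.62, and of 10 stress and unfolded protein genes 6 were higher and 1 lower, with the chaperone Hspa5 at 1.44.

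At the earlier steps Fos and Jun fell and Zfp36 rose, while Btg2 rose only at the second of them (0.14 ± 0.09 from DN to DPbla cells, not called). From DN to DPbla cells 6 of 8 members were called (edgeR, 60.6% of 10727 genes): Jun at -2.69 ± 0.12, Junb at -2.25 ± 0.25, Fosb at -1.31 ± 0.28, Fos at -1.13 ± 0.19, Ier2 at -0.65 ± 0.13 and Zfp36 at 1.64 ± 0.17. From DPbla to DPre cells, leaving out Fosb, which had 0.217 to 1.11 CPM in DPre cells, 6 of 7 were called (edgeR, 74% of 11759 genes), with Fos at -2.01 ± 0.17, Jun at -1.45 ± 0.12 and Dusp1 at -1.31 ± 0.13 and with Btg2 at 0.97 ± 0.05, Zfp36 at 0.91 ± 0.08 and Junb at 0.45 ± 0.08. Only Ier2 was not called there, at -0.12 ± 0.12.

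Past selection the called differences were at most 1.04 on the log2 scale. In CD4SP against DPsel cells 5 of 7 members were called (edgeR, 40.1% of 10214 genes), Jun at 1.04 ± 0.19, Ier2 at 0.42 ± 0.08, Junb at 0.41 ± 0.09, Dusp1 at -0.43 ± 0.12 and Btg2 at -0.20 ± 0.06, and DESeq2 called 1. In CD8SP cells, compared with the same DPsel sums, 6 of 8 were called (edgeR, 50.9% of 10322 genes), with Fos at 0.83 ± 0.21, Jun at 0.63 ± 0.16, Junb at -0.27 ± 0.07, Zfp36 at -0.69 ± 0.09, Btg2 at -0.80 ± 0.07 and Dusp1 at -0.80 ± 0.14. The Fos call was lost with DESeq2 (0.51, adjusted p = 0.629), which called 5, and with the members among the clustering genes (0.35, adjusted p = 0.0769, edgeR). The CD8SP value of Fos in cKO 1 (16.8 CPM) came from 34 UMIs in 12 cells, 19 of them in 1 cell. With the 5% mitochondrial limit the signs of Junb (-0.11) and Btg2 (0.21) turned in CD4SP cells, where the Btg2 call was kept in 6 of 11 alternatives. The sign of Junb also turned in CD8SP cells without doublet removal (0.18) or at a finer clustering (0.081).

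Libraries numbered 2 held more AP-1 and Dusp1 RNA than libraries numbered 1, in both genotypes and at every stage or nearly so. In the 3 DP stages summed (all DP), Fos was at 2.90, 14.2, 2.15 and 12.9 CPM, Junb at 58.9, 153, 51.4 and 99.6 CPM and Dusp1 at 16.1, 38.5, 13.4 and 21.4 CPM. For all 3 genes the number 2 values did not overlap the number 1 values, though for Dusp1 cKO 2 lay closer by ratio to cKO 1 than to control 2. Jun (7.89, 21.2, 10.6 and 21.8 CPM) and Fosb (0.522, 3.06, 0.670 and 3.55 CPM) showed the same order.

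Zfp36 (89.5, 82.5, 55.0 and 60.2 CPM), Ier2 (52.2, 53.7, 42.4 and 44.7 CPM) and Btg2 (628, 512, 449 and 424 CPM) did not separate by number in all DP cells. Counted over the 6 stages, both number 2 libraries were above both number 1 libraries in 6 for Fos, Fosb, Jun and Junb, in 5 for Dusp1, in 3 for Ier2 and in 1 each for Zfp36 and Btg2 (for Fosb in CD4SP cells the order rested on 1, 2, 0 and 1 UMIs), whereas 13.1% to 17.3% of all tested genes had that order in a given stage.

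In a fit with genotype and number as additive terms, 5 of 8 members were called higher in number 2 in all DP cells (edgeR), against 1.42% of 12753 genes called higher and 2.89% called either way. Fosb was higher by 2.45 ± 0.32 (log2 ± SE), Fos by 2.43 ± 0.18 (adjusted p = 4.02e-38, edgeR), Jun by 1.21 ± 0.13, Junb by 1.17 ± 0.09 and Dusp1 by 0.98 ± 0.12. The adjusted p by edgeR was 0.220 for Btg2 (-0.19 ± 0.08), 0.887 for Ier2 (0.06 ± 0.10) and 0.992 for Zfp36 (0.01 ± 0.10). This fit has 1 residual degree of freedom, so that the p-values lean on the spread shared over all genes. DESeq2 also called 5, with an adjusted p of 6.59e-12 for Fos, and with genotype left out 0 were called, with an adjusted p of 0.0540 for Fos by edgeR and the same log2 difference, 2.43.

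By stage, members that passed the low-count filter through the number 2 libraries alone, and so only by being high there, are left out of the counts: Fos in DN, DPre and CD4SP, Fosb in DN, DPbla and DPsel, and Zfp36 in DN cells. Of the rest, those called higher in number 2 numbered 4 of 5 in DN cells (0.954% of all genes called either way by edgeR, 0.471% higher) and 5 of 7 in DPbla cells (2.14%, with 1.07% higher and 1.06% lower). The mature classes had 4 of 7 in CD8SP (0.326%) and 3 of 6 in CD4SP cells (0.476%). Selected DPsel cells had 4 of 7 (2.05%) and resting DPre cells 3 of 6 (2.53%), and no member was called lower in any class. Fos was higher by 3.63 ± 0.27 in DPbla, 1.87 ± 0.33 in CD8SP and 1.51 ± 0.22 in DPsel cells on the log2 scale. Junb was higher by 2.76 ± 0.16 in DN, 2.22 ± 0.11 in CD4SP, 1.65 ± 0.13 in CD8SP, 1.51 ± 0.09 in DPsel, 0.88 ± 0.11 in DPre and 0.85 ± 0.13 in DPbla cells. These fitted values cover unequal gaps in the 2 genotypes: Junb in DN cells differed by 4.98 in controls and 1.75 in cKO, and Fos in CD8SP cells by 4.64 and 1.13, all on the log2 scale. Ier2 was called in DN (1.14 ± 0.24) and DPbla cells (0.71 ± 0.14). With genotype left out of the fit, edgeR called 1 of the counted members in DN, 1 in DPbla and 0 in DPre cells. That fit called 4 in DPsel and 3 each in CD4SP and CD8SP cells. Of the members counted here DESeq2 called 0 in DN (3 at an unadjusted p under 0.05), 2 in DPre, 3 in DPsel, 1 in CD4SP and 1 in CD8SP cells and gave no adjusted p for the 5 in DPbla cells.

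A sum does not tell more cells with a transcript from more transcripts per cell, so cells were also thinned to 1000 UMIs each. Junb was then detected in 0%, 47.6%, 5.48% and 16.4% of DN cells (13.6%, 90.5%, 37.0% and 56.8% before thinning) and in 11.3%, 26.1%, 12.6% and 19.9% of DPsel cells. At equal depth, then, Junb was found in a larger share of cells in both libraries numbered 2. Thinned Btg2 was found in 56.4%, 49.5%, 49.0% and 44.0% of DPre cells, the number 2 library being the lower of each genotype. Thinning left out at most 22 DPre cells of a library.

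**Figure D2:**
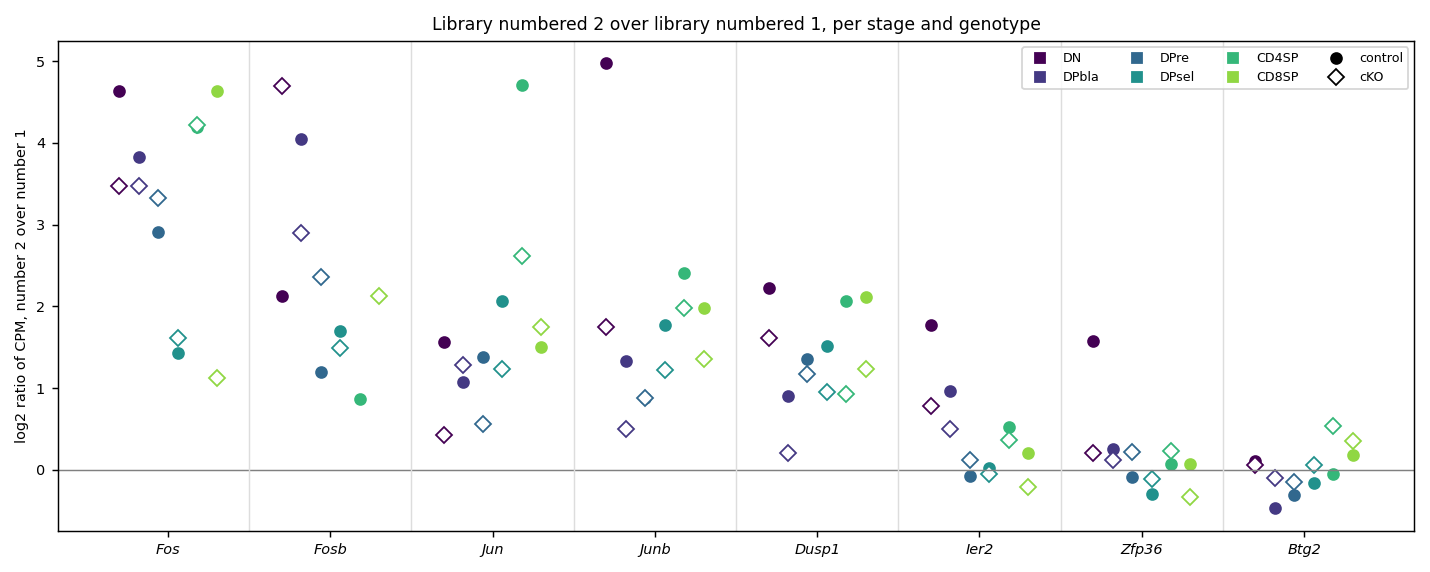
Log2 ratio of CPM, library numbered 2 over library numbered 1, for each immediate-early gene in each stage (colour) in controls (filled circles) and cKO (open diamonds); pairs with a 0 are not drawn. Every drawn point of Fos, Jun and Junb lies above 0, and the points of Zfp36 and Btg2 straddle it outside DN cells.

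The other lists were tested in the same fit. Of 34 other immediate-early genes in all DP cells 8 were higher and 2 lower in number 2, with a median of 0.12, against -0.01 over all genes. Ppp1r15a, the stress-induced phosphatase cofactor GADD34, was higher by 1.46, Sik1 by 1.68, Rgs2 by 0.84 and Dusp5 by 0.82. DESeq2 called 7 of these 34 higher. Of 21 other heat shock genes in all DP cells 1 was higher, Dnajb1 by 0.34, and 0 of 15 regulators, 0 of 6 glucocorticoid response genes and 0 of 10 stress and unfolded protein genes were called by edgeR, with 1, 1 and 3 at an unadjusted p under 0.05. DESeq2 called 0 in all 4 of these lists.

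The MPS class, from 108 to 407 droplets, had the same order with few molecules behind it. Fos was at 5.09, 332, 0 and 105 CPM there, from 1, 56, 0 and 27 UMIs in 1, 4, 0 and 6 droplets, and Jun was at 15.3, 249, 18.8 and 139 CPM. The highest single droplets held 27 and 13 of the Fos UMIs, so no fold is given.

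Between genotypes, in the fit on genotype alone, Zfp36 was the 1 member called. It was at 89.5 and 82.5 CPM in controls and at 55.0 and 60.2 CPM in cKO in all DP cells, and at 41.9 and 49.8 against 26.0 and 28.4 CPM in DPbla cells. The cKO libraries lay below the controls without overlap in both classes. The all DP sums also differed in make-up. DPbla cells were 382 of 3937 and 585 of 6491 in controls, and 700 of 4452 and 1198 of 8665 in cKO. By mean Zfp36 was at 36.5 CPM in DPbla, 83.9 in DPre and 92.5 in DPsel cells. What part make-up had in the all DP differences was not tested. No alternative below held it fixed, and some left 1 library in a genotype. In all DP cells Zfp36 in cKO over control was at -0.52 ± 0.10 on the log2 scale (adjusted p = 0.00625, edgeR), with -0.70 within number 1 and -0.45 within number 2, while 5.95% of 12753 genes were called, 3.71% higher and 2.24% lower, and 32.9% had both cKO libraries below both controls and 19.6% above. In DPbla cells it was at -0.72 ± 0.14 (adjusted p = 0.0143, edgeR), with -0.69 and -0.81 within the numbers and 2.34% of 10611 genes called, 1.58% higher and 0.754% lower, and 28% in the same order without overlap. The all DP call was kept in 13 of 13 alternatives and the DPbla call in 10 of 13. The latter was lost at the 5% mitochondrial limit (adjusted p = 0.114, edgeR), with extreme UMI totals kept (0.0951) and without control 2 (0.0763).

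Both cKO libraries were below both controls for Zfp36 in 5 of 6 stages, all but DN, and for Btg2 in 4, whereas 15.9% to 28.6% of all tested genes had that order in a given stage (28.6% in DPre and 21.5% in DPsel cells, with 18.4% and 17.8% in the reverse order). Btg2 was at 628 and 512 CPM in controls and 449 and 424 CPM in cKO in all DP cells, a difference of -0.33 ± 0.10 with an adjusted p of 0.0712 by edgeR. Dusp1 was lower in cKO within both numbers in 5 of 6 stages, but control 1 (16.1 CPM) lay below cKO 2 (21.4 CPM) in all DP cells, and the pooled difference was -0.61 ± 0.28 (adjusted p = 0.234, edgeR). For the AP-1 genes in all DP cells the difference was -0.14 ± 0.58 for Fos, 0.26 ± 0.60 for Fosb, 0.19 ± 0.33 for Jun and -0.45 ± 0.32 for Junb, each with an SE set by the gap between numbers, and none was called.

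**Figure D3:**
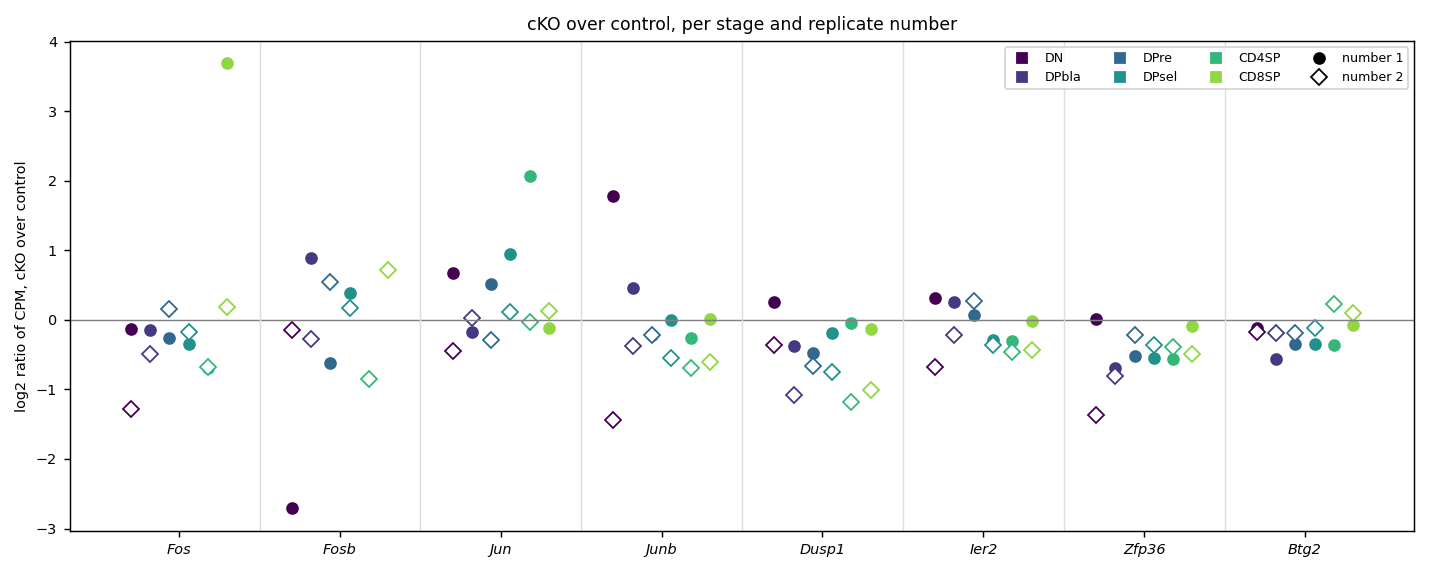
Log2 ratio of CPM, cKO over control, within number 1 (filled circles) and number 2 (open diamonds), per immediate-early gene and stage (colour); pairs with a 0 are not drawn. Zfp36 lies below 0 within both numbers in the 5 stages after DN, whereas Jun and Fosb lie on both sides.

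In the remaining classes no member was called by genotype in that fit, whereas with the replicate number as a block, which leaves 1 residual degree of freedom, edgeR called 2 in DN (0.391% of all genes lower), 3 in DPre (3.97%), 3 in DPsel (1.38%), 1 in CD4SP (0.453%), 1 in MPS (0.421%) and 4 in all DP cells (6.97%), all lower in cKO, and in DPbla cells it called 3 rather than 1, also lower (4.38%). The 4 in all DP cells were Zfp36, Dusp1 (-0.56 ± 0.12), Junb (-0.38 ± 0.09) and Btg2 (-0.33 ± 0.08). The counts that follow are without the block. They were 0 of 8 in DN cells (0.023% of all genes called by edgeR), 0 of 7 in DPre cells (1.24%, with 0.716% higher and 0.528% lower), 0 of 8 in DPsel cells (0.332%), and 0 of 7 each in CD8SP (0.326%), CD4SP (0.125%, with 0.0567% higher and 0.068% lower) and MPS cells (0%). At an unadjusted p under 0.05 these edgeR fits held 3 members in DPsel and CD4SP, 1 in DPre and CD8SP and 0 in DN and MPS cells, and DESeq2 called 0 in each. Zfp36 was at -0.50 ± 0.15 in CD4SP, -0.45 ± 0.13 in DPsel, -0.32 ± 0.11 in DPre and -0.29 ± 0.20 in CD8SP cells.

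Of the other immediate-early genes in all DP cells 1 of 34 was higher in cKO, Myc by 1.35 ± 0.17, and 3 were lower, Dusp6 at -0.67 ± 0.13, Jund at -0.46 ± 0.09 and Cd69 at -0.40 ± 0.11, with a median of -0.20 against 0.00 over all genes. Dusp6 encodes an ERK phosphatase and Cd69 an early activation antigen. Within stages this list had 1 of 27 higher and 1 lower in DPbla cells, with a median of -0.15. It had 1 of 33 higher and 0 lower in DPre cells (median -0.08), and 0 of 31 higher and 1 lower in DPsel cells (-0.07). Of 21 other heat shock genes 6 were higher and 0 lower. The 6 included the mitochondrial chaperonins Hspd1 (0.51 ± 0.09) and Hspe1 (0.48 ± 0.09), the cytosolic Hsp90aa1 (0.47 ± 0.09) and the HSP110 gene Hsph1 (0.58 ± 0.14). Within stages 2 of 18 were higher in DPbla, 0 of 19 in DPre and 0 of 18 in DPsel cells, and 0 were lower. From DPbla to DPre cells 14 of 19 heat shock genes were lower and 2 higher (36.6% of all genes lower). The cKO all DP sums held a larger share of DPbla cells, and its part in these counts was not tested. Of 6 glucocorticoid response genes Nr3c1, the receptor, was higher (0.39 ± 0.10) and Sgk1 lower (-0.60 ± 0.15) by edgeR, whereas DESeq2 called 2 higher and 0 lower in this list. Of the rest, 0 of 15 regulators and 0 of 10 stress and unfolded protein genes were called by edgeR, with 0 and 2 at an unadjusted p under 0.05, or by DESeq2.

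The genotype difference of 1 member was called as unequal in DPre and DPsel cells in the main fit, and in 4 of 10 alternatives with an adjusted p. Ier2 was at 28.6 and 27.1 CPM in control and 30.1 and 32.6 CPM in cKO DPre cells, but at 136 and 138 against 112 and 107 CPM in DPsel cells. The cKO libraries were thus above the controls in DPre and below them in DPsel, without overlap in either. Of all tested genes 18.4% had the first order in DPre cells and 21.5% the second in DPsel cells. The interaction was -0.54 ± 0.11 (adjusted p = 0.0287, edgeR), 1 of 8 members being called where 0.36% of 11653 genes were. Within DPre alone the difference was 0.21 ± 0.12 and within DPsel alone -0.31 ± 0.11, neither called. The interaction was no longer called by edgeR without control 1 (-0.59, adjusted p = 0.0959), control 2 (-0.49, 0.434) or cKO 2 (-0.44, 0.258).

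As a check on handling, cells and droplets of unlike mitochondrial share were compared within libraries. Between DPre cells with 5% to 10% and those with under 5% mitochondrial UMIs, 0 of 7 members were called (edgeR, 0.23% of 10892 genes), 0 had an unadjusted p under 0.05 by edgeR, and DESeq2 called 0. The differences ran from -0.16 ± 0.32 for Fos to 0.24 ± 0.18 for Dusp1, with 0.02 ± 0.08 for Junb and 0.02 ± 0.03 for Btg2. Between the droplets with over 10% mitochondrial UMIs and kept cells 54.9% of 13921 genes were called (edgeR, 27.7% lower), so that the 4 of 9 members called, all lower, are near the background: Ier2 at -0.68 ± 0.09, Junb at -0.47 ± 0.08, Zfp36 at -0.31 ± 0.07 and Dusp1 at -0.29 ± 0.11. The Dusp1 call was kept in 3 of 8 alternatives (adjusted p up to 0.362, edgeR) and was lost with DESeq2 (3 of 9 called), with droplets above 20%, and without control 1, control 2 or cKO 1, with -0.48 to -0.19 when 1 library was left out. Fos was at -0.17 ± 0.13 and Hspa1b at 0.94 ± 0.42 (adjusted p = 0.0596, edgeR). Of 23 other heat shock genes 16 were lower and 3 higher in these droplets, and of 11 stress and unfolded protein genes 2 were lower and 7 higher. Class make-up can differ between kept and left-out droplets.

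The gap in Fos between numbers was present at every mitochondrial share. Among all droplets with 10% to 20% mitochondrial UMIs Fos was at 2.54, 24.0, 6.57 and 14.4 CPM of non-mitochondrial UMIs, and among those with 20% to 40% at 1.97, 29.1, 3.84 and 27.1. In the bin from 2.5% to 5%, which passed the limit, it was at 4.29, 34.9, 4.04 and 20.5. Both number 2 libraries were above both number 1 libraries in each of these bins. The libraries with more droplets over the limit were thus the ones with the lower Fos, Jun, Junb and Dusp1; what part the mitochondrial share or the handling of the suspensions had in this was not tested.

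**Figure D4:**
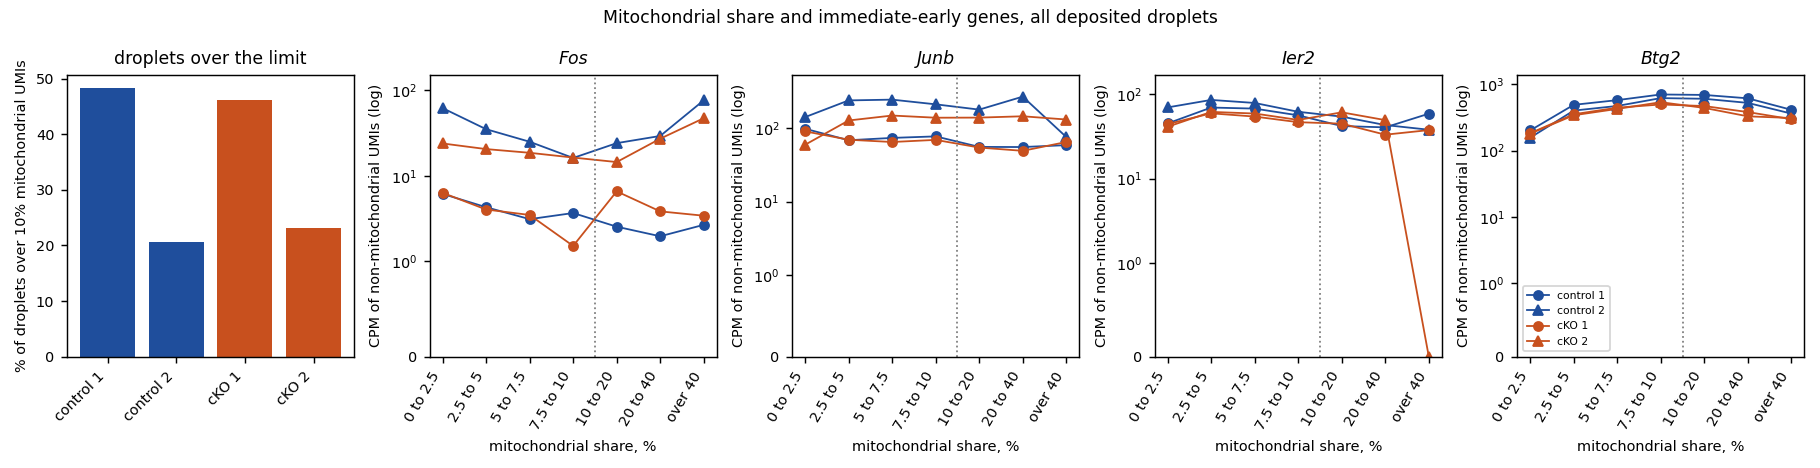
Left, share of droplets over 10% mitochondrial UMIs in each library. Right, Fos, Junb, Ier2 and Btg2 in CPM of non-mitochondrial UMIs (log axis, linear below 1) against the mitochondrial share of all droplets, with the 10% limit dotted, for each library (blue control, orange cKO, circles number 1, triangles number 2). Fos triangles lie above Fos circles in all 7 bins, and the last bin has as few as 106 droplets in a library.

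Hspa1a and Hspa1b were scarce in all 4 libraries. Over all kept cells Hspa1a had 8, 15, 7 and 25 UMIs in 7, 15, 4 and 21 cells, which is 0.323, 0.454, 0.229 and 0.595 CPM, and Hspa1b had 16, 10, 13 and 13 UMIs in 15, 10, 12 and 13 cells, which is 0.646, 0.303, 0.425 and 0.309 CPM. The exact Poisson 95% intervals (counting error only) ran from 0.0920 to 0.878 CPM for Hspa1a and from 0.145 to 1.05 CPM for Hspa1b over the 4 libraries, and those of the 4 libraries overlapped for each gene. Neither gene passed the low-count filter in any stage, so neither was tested between stages, numbers or genotypes. Hspa1a was the higher in both libraries numbered 2 and Hspa1b in both numbered 1 within their genotype, by differences of few molecules. With all deposited droplets counted, Hspa1a had 10, 22, 14 and 34 UMIs and Hspa1b 32, 17, 32 and 24.

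**Figure D5:**
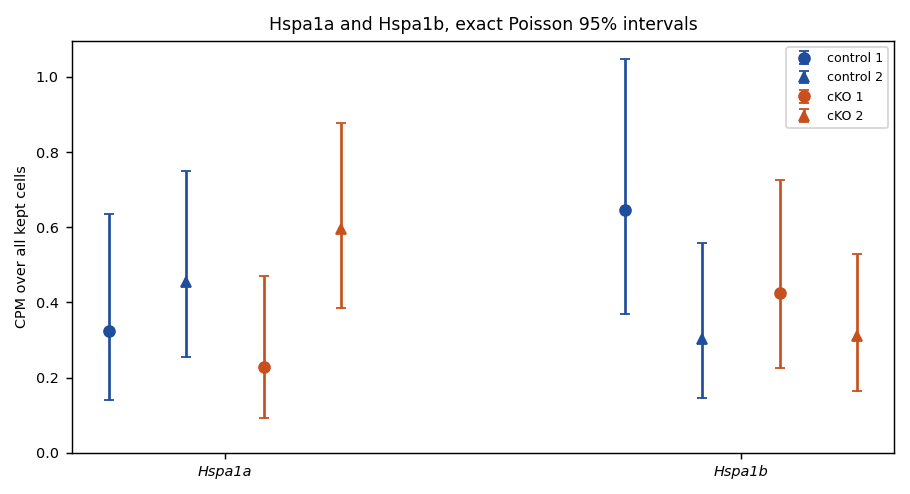
CPM of Hspa1a and Hspa1b over all kept cells of each library (blue control, orange cKO, circles number 1, triangles number 2), with exact Poisson 95% intervals that cover counting error only. No library exceeds 0.646 CPM, and the intervals of each gene overlap.

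In the stages the heat shock pair rested on few molecules. By mean over the 4 libraries Hspa1a was at 0.414 ± 0.486 CPM (SD, n = 4) in DN and 0.370 ± 0.114 CPM in DPbla cells, and Hspa1b at 0.593 ± 0.715 and 0.239 ± 0.047 CPM. In CD8SP cells both had 0 UMIs in every library. The highest Hspa1b level in a cluster with at least 30 cells in every library, looked up after the values were seen, was 45.7, 20.6, 18.0 and 25.6 CPM, from 10 UMIs, in an unnamed cluster of 393 cells with a median of 721 UMIs whose leading genes included the keratins Krt8 and Krt18. Hspa1a was at 0, 20.6, 6.01 and 25.6 CPM there, from 4 UMIs. Among all deposited droplets, those with under 2.5% mitochondrial UMIs had by mean 2.89 CPM of Hspa1a and 3.36 CPM of Hspa1b (per non-mitochondrial UMIs), against 0.342 and 0.561 CPM in the next bin, 2.5% to 5%. These rested on 0, 2, 4 and 3 UMIs of Hspa1a and 3, 2, 2 and 1 of Hspa1b. Other heat shock genes were expressed throughout and were counted above.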

How the data were processed

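The authors deposited raw UMI counts per gene and droplet for each library (Cell Ranger, 6.1.1 by the matrix headers, mm10; kit Chromium Single Cell 3′ v3), and no column was left unassigned. Droplets with under 200 genes, over 10% mitochondrial UMIs, or totals in the outer 2.5% on either side of a library were left out, as were the 5% with the highest doublet score. The rest were clustered together (scanpy 1.11.5, leidenalg 0.10.2, 3000 variable genes, 30 components, resolution 1) without the members and 96 list genes, and named from fixed markers; the margin of 0.2 between stage scores was set after the clusters were seen. Names are rebuilt and may differ from the study's. Counts were summed per library and class (at least 30 cells in every library) and tested with edgeR 4.0.16 in R 4.3.3 (quasi-likelihood F test, TMM, filterByExpr, Benjamini-Hochberg over all tested genes, call at 0.05), after a check on simulated data. Genotype was fitted alone (2 residual degrees of freedom), number with genotype, and stages, mitochondrial bins and the interaction with library as a block. The SE is the log2 difference divided by the root of F. Alternatives included DESeq2 1.42.0. The 10 members are named throughout, with at most the 4 called genes of lowest adjusted p per list. Members and lists were chosen with earlier results of these data known. Ddit3, whose symbol occurs more than once, was left out.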

Additional observations from a re-analysis of the deposited data

Results flagged for a closer look

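The genotype difference of Ier2 was unequal in DPre and DPsel cells by a test of the interaction, although neither stage's own difference was called. It was at 28.6 and 27.1 CPM in control and 30.1 and 32.6 CPM in cKO DPre cells, and at 136 and 138 against 112 and 107 CPM in DPsel cells. The difference in DPsel less that in DPre was -0.54 on the log2 scale, with an adjusted p of 0.0287 (edgeR), and over 10 alternatives with an adjusted p it ran from -0.61 to -0.44 and was past the threshold in 4 (adjusted p = 0.00250 to 0.759, edgeR). DESeq2 gave no adjusted p for it.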

How the results depend on the processing

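With the replicate number as a block, the members called by genotype rose from 0 to 2 in DN, from 1 to 3 in DPbla, from 0 to 3 in DPre and DPsel, from 0 to 1 in CD4SP and MPS and from 1 to 4 in all DP cells, all lower in cKO, while 0.391% to 6.97% of all genes were then called lower. Same-numbered libraries deviated together with a correlation of 0.069 to 0.377 over the 8 classes, from 2 pairs; the labels do not say what a number marks.

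By genotype, without the filter on low counts 2 members were called in DN, DPbla, DPsel and CD4SP, 1 in DPre and 4 in all DP cells, and DESeq2 called 2 in all DP. In DPbla cells 0 were called with the 5% mitochondrial limit or with extreme totals kept and 2 without doublet removal. Leaving out 1 library gave 0 to 1 in DN, 2 to 5 in DPbla, 0 to 2 in DPre, DPsel, CD8SP and MPS, 0 to 5 in CD4SP and 1 to 5 in all DP cells.

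By number, counts over all tested members include those that passed the low-count filter through number 2 alone. Leaving genotype out of the fit gave 2 in DN, 1 in DPbla and DPre and 0 in all DP cells, or 1 in DN and 0 in DPre without such members. DESeq2 gave 1 in DN and CD8SP and 2 in CD4SP (0, 1 and 1 without them), and no adjusted p for the called members in DPbla and MPS. The 5% mitochondrial limit gave 2 in DPre, DPsel and MPS, and keeping extreme totals 2 in CD8SP. The direction of the called members by number held in every alternative run.

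Between stages, CD4SP over DPsel had 1 call with DESeq2 and 3 with the 5% limit. With that limit Zfp36 turned to -0.047 in DPsel over DPre, and Btg2 to 0.21 and Junb to -0.11 in CD4SP over DPsel, while Junb in CD8SP over DPsel turned to 0.18 without doublet removal and 0.081 at Leiden resolution 1.5. Leaving out 1 library gave 6 to 7 for DPbla over DN and DPre over DPbla, 7 to 8 for DPsel over DPre, 4 to 5 for CD4SP and 6 for CD8SP over DPsel, 0 for the mitochondrial bins and 3 to 4 for the left-out droplets. The interaction had 0 calls with the 5% limit, at resolution 1.5 or with the members among the clustering genes, and 0 to 1 without 1 library. The causes were not tested.

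The 5% limit could not be run in DN and CD8SP cells, and a number fit without 1 library has no residual degrees of freedom. Depth limits Fos, Fosb and the heat shock pair, which rest on few UMIs in most classes.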

Other observations

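Over the 24 sums of 6 stages and 4 libraries, the genes outside the lists whose log2 CPM followed the mean of the 8 immediate-early members most closely, of 9220 candidates, were Coq10b (Pearson r = 0.818), Slc3a2 (0.750), Pgm3 (0.712), Gnl2 (0.702) and Gm43848 (0.667). For the heat shock pair they were Rbks (0.673), Trmt61b (0.658), Dmap1 (0.657), Cars (0.608) and Git1 (0.607), with few UMIs behind the pair. Among the members, r was 0.807 for Junb and Ier2, 0.742 for Fos and Fosb, 0.741 for Fos and Dusp1 and -0.682 for Jun and Zfp36. The sums share libraries, stages and depth, so these are descriptions without a test.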
